A study of Rattus norvegicus with 4 samples.

Results

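Described here are 41 genes of sphingolipid metabolism and sphingosine 1-phosphate (S1P) signalling in cultured rat oligodendrocyte precursor cells (OPCs) after silencing of the receptor GPR17. They were chosen by name, as enzymes and receptors of the pathway, with earlier results of these data known. Array probes were assigned to them through the RefSeq accession printed for each probe. Of the 41, 37 had at least 1 such probe and 35 had a probe bright enough to be tested, out of 16568 genes with a probe and 11656 genes tested on these arrays. The OPCs came from the pooled cortices of rat pups at postnatal day 2 (Sprague-Dawley strain) and were expanded for 3 days with bFGF and PDGF before being moved to a differentiating medium containing the thyroid hormone T3. They were then transfected, using Lipofectamine RNAiMAX, either with 50 nM of an siRNA pool against the GPR17 transcript (siGPR17) or with the same amount of a non-targeting pool (siNEG), and were lysed after 48 h, that is after 2 days of maturation in vitro. Each condition was represented by 2 arrays of a single-colour Agilent design. The series calls the samples of a condition independent without saying whether separate cultures were used, so every p-value here measures the spread between these samples only.

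Sphingolipids are built from serine and a fatty acyl-CoA by serine palmitoyltransferase, and the product is converted to ceramide, the branch point of the pathway. Ceramide gives rise to sphingomyelin, to the galactolipids that make up much of the myelin sheath, and to glucosylceramide and the gangliosides. Its breakdown releases sphingosine, which sphingosine kinases phosphorylate to S1P, a signal that oligodendrocyte-lineage cells sense through a family of G protein-coupled receptors.

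Signals are normalized intensities in arbitrary units, and since probes differ in how well they bind, differences were read between arrays for the same probe. Sums over marker probes and the brightest probe of a marker list are given as descriptions of signal, not of transcript abundance. The 75th percentile of the intensities, to which each array was scaled, was 616 and 624 on the siNEG arrays and 596 and 565 on the siGPR17 arrays, and no spot of a gene probe was saturated. Replicate arrays differed with a SD of 0.37 (siNEG) and 0.29 (siGPR17) in log2 units over the 28016 tested probes. All arrays shared a slide and a scan, but siNEG and siGPR17 occupied different columns of that slide, so column and treatment cannot be told apart. With 2 arrays against 2 there are 3 possible splits, and the smallest two-sided p of an exact permutation test is 0.333. Differences were therefore tested with limma over all tested probes, and a gene was called where it reached a fold of 1.5 and an adjusted p under 0.07. Gpr17 itself had signals of 1107 and 1113 in siNEG and of 652 and 639 in siGPR17 OPCs. Both siGPR17 arrays lay below both siNEG arrays, and the log2 fold change was -0.78 (standard error 0.085, adjusted p = 0.209, limma with Benjamini-Hochberg adjustment).

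The labelled cell type was checked against marker genes. The oligodendrocyte-lineage genes Sox10, Olig1 and Olig2 were well above background on every array, with summed signals of 165495 and 204877 in siNEG and of 167379 and 170134 in siGPR17 OPCs, and Olig2 had the brightest probe by its mean over the arrays. The precursor genes Pdgfra and Cspg4, whose probes were about equally bright in siNEG, were both lower in siGPR17 OPCs (log2 fold changes -0.23, or -0.10 under spike-in scaling, and -0.48), with sums of 34030 and 34323 against 26838 and 26738. Of 6 genes typical of mature oligodendrocytes, 2 had higher and 4 lower signals, with a median log2 fold change of -0.23. Their sums were 285725 and 320941 in siNEG and 336986 and 350857 in siGPR17 OPCs, and the brightest probe, that of Mbp, was higher (197178 and 227699 against 256521 and 272873). Without Mbp the sums were lower in siGPR17 OPCs, at 80464 and 77984 against 88547 and 93241. Mog, a late myelin gene, read 359 and 413 in siNEG and 256 and 228 in siGPR17 OPCs (log2 fold change -0.67, standard error 0.124, adjusted p = 0.210, limma with Benjamini-Hochberg adjustment; 0.0387 with the trend and robust option). A dimmer probe of Mog overlapped between groups, at 143 and 99.0 against 90.0 and 108, with a log2 fold change of -0.27. Mag, like Mbp, was higher without overlap (0.20), but a dimmer probe of Mag overlapped between groups, with a log2 fold change of 0.086. In a bulk measurement of this kind, fewer cells of a type and less RNA per cell cannot be told apart.

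Across the pathway the data showed small differences in both directions. Of the 35 tested members, 18 were higher and 17 lower in siGPR17 OPCs, and their median log2 fold change was 0.02, beside 0.01 for all 11656 tested genes. Scaling on the spike-in controls, which added 0.131 to the log2 fold change of every gene and moved the median of all genes to 0.141, gave 22 members above 0 and moved their median to 0.15. The median size of the difference, whatever its sign, was 0.17 for the members and 0.14 for all genes. In limma 0 of the 35 members passed the thresholds, as did 0 of all genes (0%), and the adjusted p of the members ran from 0.209 to 0.946 after Benjamini-Hochberg adjustment. Without adjustment, 4 members were higher with a p under 0.05 (Galc, St3gal5, Sgms1 and Sphk1), where 7.43% of all genes were, and 6 were lower (Sptlc2, Sptssb, B4galnt1, Smpd3, Cerk and S1pr3), where 8.73% of all genes were. Together these were 10 of 35 members, beside 16.2% of all genes. Because the members were chosen with earlier results known, these shares cannot show that the pathway differs from other genes. Sphk1 and Sptssb entered the tests only through the group where they were brighter, so a difference was built into their selection, and they add no support to these counts. With the filter on all 4 arrays, which leaves both out, 10 of 32 members and 17.8% of genes had an unadjusted p under 0.05. The count was 9 without siNEG replicate 1 (22.9% of all genes), 11 without siNEG replicate 2 (16.8%), 4 without siGPR17 replicate 1 (6.58%), 5 without siGPR17 replicate 2 (6.07%), 6 with the replicate number as a block (11%) and 10 with spike-in scaling (15.2%). In 11 members (Sphk1 among them) both siGPR17 arrays exceeded both siNEG arrays and in 13 (Sptssb among them) they were under them, while 28.1% and 25.3% of all genes showed those patterns. A fold of 1.5 or more was reached upwards by 1 member, Sphk1, and by 2.43% of all genes, and downwards by 3 members, Sptlc2, Sptssb and S1pr3, and by 2.65% of all genes. This list depended on the processing. Under spike-in scaling Sptlc2 (-0.54) and S1pr3 (-0.48) fell short of that fold, a log2 value of 0.585, while Galc (0.62) reached it. The same held without siGPR17 replicate 2, at -0.50, -0.54 and 0.61. With normexp Sptlc2 (-0.44), Sptssb (-0.17), S1pr3 (-0.28) and Sphk1 (0.40) fell short. For Sphk1 and Sptssb the fold rests on a group that was not well above background.

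The count of called members depended on how the spread was modelled. When limma fitted the spread as a trend over signal with robust estimation, 1 member passed, Sptlc2, and 1.58% of all genes did. With normexp background correction 0 members passed, while 0.961% of all genes did, and the unadjusted p was under 0.05 for 11 members and for 19.6% of all genes. The methods' t-test on the same values passed 0 members and 0 genes, but it also missed every difference put into simulated data of this size, so its calls carry no information here. It gave 7 members and 14.4% of all genes an unadjusted p under 0.05. The sign of the difference held under every alternative for 24 of the 35 members. It turned under at least 1 of them for Arsa, Asah2, Cers4, Cers5, Fa2h, S1pr2, S1pr5, Sgms2, Sgpl1, Smpd2 and Ugcg.

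**Figure D1:**
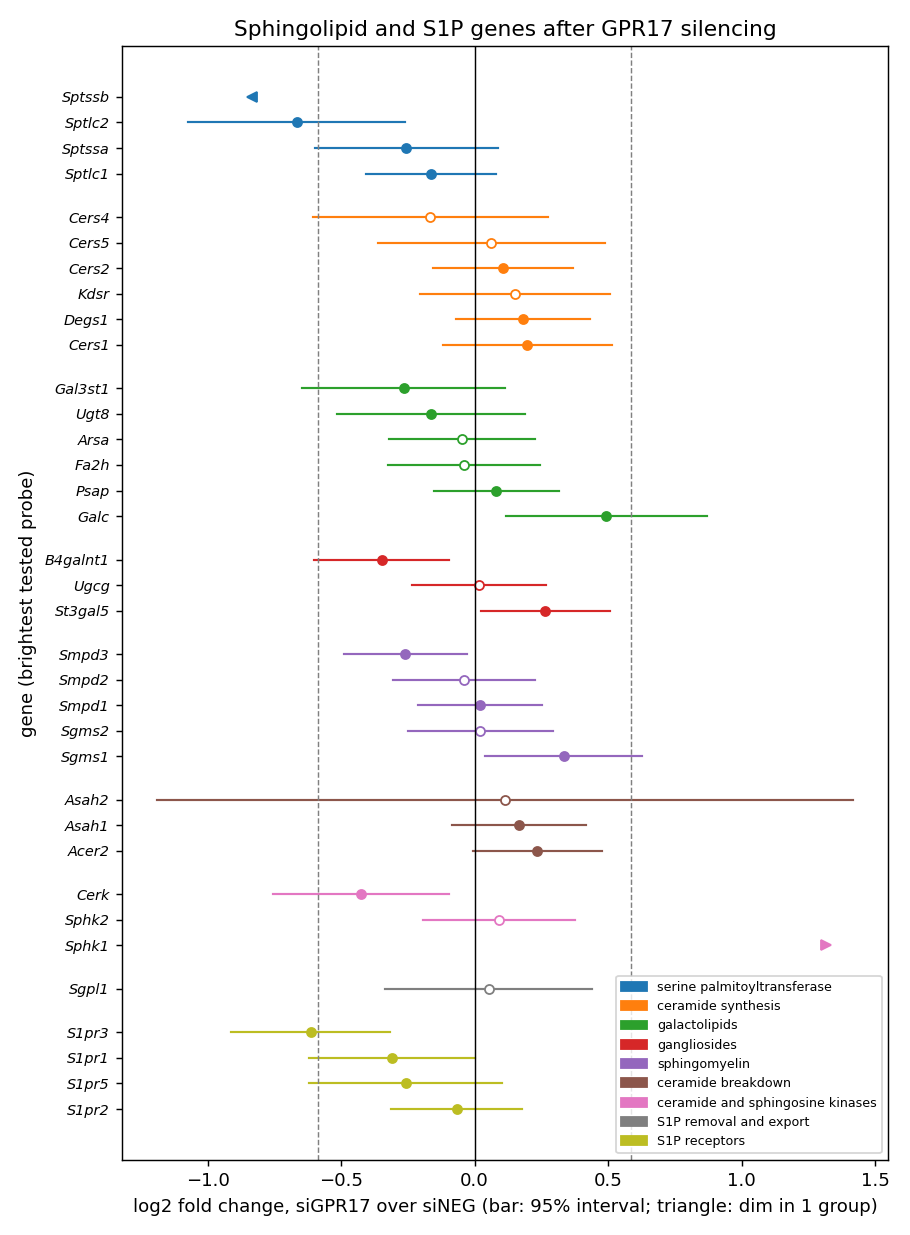
Log2 fold change of each tested member gene, siGPR17 over siNEG, on the horizontal axis, with genes grouped by pathway branch (colour) on the vertical axis. Points are limma estimates from 2 arrays per group, bars are 95% confidence intervals, and dashed lines mark a fold of 1.5. Triangles without bars are Sptssb (-0.83) and Sphk1 (1.32), which were not well above background in siGPR17 and in siNEG OPCs, respectively. Filled symbols are genes whose arrays did not overlap between groups and open points genes whose arrays did.

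Serine palmitoyltransferase catalyses the first and rate-limiting step of sphingolipid synthesis. Of its 5 genes, 3 were well above background on all 4 arrays (Sptlc2, Sptssa and Sptlc1). These were lower in siGPR17 OPCs under every scaling of the arrays, with a median log2 fold change of -0.26, and without overlap, as were 25.3% of all genes. Under spike-in scaling Sptlc1 was near 0 (-0.031) and Sptssa at -0.13. Sptlc2, a subunit that carries the catalytic lysine, had signals of 261 and 287 in siNEG and of 193 and 154 in siGPR17 OPCs. Both siGPR17 arrays were below both siNEG arrays, and the lower of them was siGPR17 replicate 2. The log2 fold change was -0.67 (standard error 0.149, 95% confidence interval -1.07 to -0.26, adjusted p = 0.216, limma with Benjamini-Hochberg adjustment). Over the alternatives this adjusted p lay between 0.0588, with the trend and robust option, and 0.665, without siGPR17 replicate 1. A dimmer probe of Sptlc2 read 169 and 165 in siNEG and 131 and 161 in siGPR17 OPCs. Its arrays did not overlap either, but its log2 fold change was only -0.21 (standard error 0.134), and the mean of both probes gave -0.44, as did normexp.

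Sptssb encodes a small activating subunit of the same enzyme. Its signals were 35.4 and 33.1 in siNEG and 20.4 and 18.1 in siGPR17 OPCs, where neither array was well above background. The groups did not overlap, and on these arrays the signal was at least 1.78-fold lower in siGPR17 OPCs (adjusted p = 0.209, limma with Benjamini-Hochberg adjustment). The probe was tested only because it was bright enough in siNEG. For such probes the bright group was set against, on each dim array, the probe's own signal or the lowest signal well above background, whichever is higher. Here the own signal was used, so the value equals the fitted log2 fold change of -0.83 and is not a lower limit. The range was -0.92 to -0.75 when arrays were left out singly. Sptssa, the alternative small subunit, had signals of 6741 and 7658 in siNEG and of 6432 and 5628 in siGPR17 OPCs. For this gene too the groups did not overlap, with the upper siGPR17 array close under the lower siNEG array, and the log2 fold change was -0.26 (standard error 0.125), or -0.16 without siNEG replicate 2 or siGPR17 replicate 2. Sptlc1, the obligate partner of the catalytic subunits, had signals of 2324 and 2456 in siNEG and of 2154 and 2117 in siGPR17 OPCs. Again without overlap, its log2 fold change was -0.16 (standard error 0.089, adjusted p = 0.422, limma with Benjamini-Hochberg adjustment). The probe of Sptlc3, an alternative catalytic subunit, was well above background on 0 of 4 arrays and was not tested. It read 17.6 and 11.4 in siNEG and 8.78 and 3.44 in siGPR17 OPCs.

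Downstream of that step, in ceramide synthesis, siGPR17 OPCs gave the higher mean signal for 5 of 6 tested genes under every scaling. The branch had a median log2 fold change of 0.13 (0.029 without siNEG replicate 1 and 0.24 without siNEG replicate 2). With all 4 arrays in the fit, an unadjusted p under 0.05 was reached by 0 of its genes in limma or in the methods' t-test, and by Cers1 with spike-in scaling. Cers1, a ceramide synthase that favours stearoyl-CoA, had signals of 21455 and 24880.2 in siNEG and of 25782 and 27220.0 in siGPR17 OPCs. Its arrays did not overlap, the log2 fold change was 0.20 (standard error 0.115), and a dimmer probe gave 0.15. Leaving out siNEG replicate 1 brought Cers1 to 0.091, and leaving out the other siNEG array to 0.30. Cers2, the synthase that makes the very-long-chain ceramides of myelin lipids, read 39516 and 43158 in siNEG and 45138 and 43852 in siGPR17 OPCs. These arrays were also apart, by a log2 fold change of 0.11 (limma standard error 0.096), which was 0.044 without siNEG replicate 1 and 0.042 with quantile normalization. Degs1, the desaturase that turns dihydroceramide into ceramide, read 12803 and 13546 in siNEG and 14577 and 15297 in siGPR17 OPCs, again without overlap (log2 fold change 0.18, standard error 0.092). The arrays of the other tested genes overlapped between groups. Kdsr, the reductase that follows serine palmitoyltransferase, was at 0.15 (0.011 without siNEG replicate 1 and 0.29 without siNEG replicate 2), and the ceramide synthases Cers4 and Cers5 were at -0.17 and 0.06 on the log2 scale. The last 2 changed sign without siNEG replicate 1, to 0.014 and -0.13. Degs2, a desaturase and hydroxylase, was likewise too dim on all 4 arrays, and no probe was matched to Cers6.

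In the galactolipid branch 2 of 6 tested genes were higher and 4 lower, and Arsa and Fa2h turned positive under spike-in scaling (0.084 and 0.091) and also without siNEG replicate 2 (0.027 and 0.046). Ugt8, which adds galactose to ceramide and so makes galactosylceramide, had signals of 41148 and 49883 in siNEG and of 41117 and 39870.1 in siGPR17 OPCs. The groups did not overlap, but the upper siGPR17 array and the lower siNEG array were nearly equal, and the log2 fold change was -0.16 (standard error 0.129). Spike-in scaling brought it close to 0 (-0.031), as did leaving out siNEG replicate 2 (-0.023). The log2 fold change of Ugt8 lay further below 0 without siNEG replicate 1 (-0.30) and with quantile normalization (-0.24). Gal3st1, the sulfotransferase that makes sulfatide, read 14468 and 17070.0 in siNEG and 14070.1 and 12151 in siGPR17 OPCs. Its groups did not overlap (log2 fold change -0.27, standard error 0.139, adjusted p = 0.405, limma with Benjamini-Hochberg adjustment), and its other probe gave -0.21. This log2 fold change was -0.15 without siNEG replicate 2, -0.16 without siGPR17 replicate 2 and -0.13 under spike-in scaling. Fa2h, which hydroxylates the fatty acid of myelin galactolipids, had overlapping arrays and a log2 fold change of -0.04.

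Galc, the lysosomal galactosylceramidase whose loss causes Krabbe disease, had signals of 22.2 and 25.6 in siNEG and of 36.4 and 30.9 in siGPR17 OPCs. Both siGPR17 arrays were above both siNEG arrays, and all 4 signals were dim though well above background. The log2 fold change was 0.49 (standard error 0.137, 95% confidence interval 0.12 to 0.87, adjusted p = 0.245, limma with Benjamini-Hochberg adjustment). With normexp, whose offset of 50 compresses dim probes by construction, it was 0.13. Psap, the precursor of the saposins that present lipids to lysosomal hydrolases, was slightly higher without overlap (0.08), and Arsa, the sulfatase that degrades sulfatide, was at -0.05 with overlap.

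Among the ganglioside genes, B4galnt1, the N-acetylgalactosaminyltransferase that opens the route to complex gangliosides, had signals of 323 and 318 in siNEG and of 243 and 262 in siGPR17 OPCs. The replicates of each group lay close together and the groups did not overlap. The log2 fold change was -0.35 (standard error 0.092, adjusted p = 0.239, limma with Benjamini-Hochberg adjustment), or -0.22 under spike-in scaling. St3gal5, the sialyltransferase that makes the simplest ganglioside from lactosylceramide, read 3944 and 4134 in siNEG and 4789 and 4918 in siGPR17 OPCs. Here both siGPR17 arrays were the higher ones, with a log2 fold change of 0.27 (limma standard error 0.088, adjusted p = 0.279, limma with Benjamini-Hochberg adjustment). Ugcg, the glucosyltransferase at the head of the branch, was at 0.02 with overlapping arrays. St3gal5 and B4galnt1, which can act in succession, thus lay on opposite sides of 0, and the contrast between them was not tested.

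In the sphingomyelin branch, Sgms1, the Golgi synthase, had signals of 459 and 524 in siNEG and of 617 and 618 in siGPR17 OPCs. The siGPR17 arrays were nearly identical and both above the siNEG arrays, with a log2 fold change of 0.33 (limma standard error 0.107, adjusted p = 0.272, limma with Benjamini-Hochberg adjustment). Smpd3, the neutral sphingomyelinase also known for its part in exosome release, read 1471 and 1479 in siNEG and 1223 and 1242 in siGPR17 OPCs. It was lower without overlap, by a log2 fold change of -0.26 (limma standard error 0.084, adjusted p = 0.275, limma with Benjamini-Hochberg adjustment), or -0.13 under spike-in scaling. Sgms2, the synthase of the plasma membrane, and the acid sphingomyelinase gene Smpd1 were both at 0.02, the former with and the latter without overlap. Smpd2, another neutral sphingomyelinase, was at -0.04 with overlap, and at 0.092 under spike-in scaling.

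The 3 tested members among the ceramidases, which free sphingosine from ceramide, all had log2 fold changes above 0 under every scaling. Acer1, a tested ceramidase outside the members, was also higher without overlap (log2 fold change 0.42, standard error 0.206, and 0.15 without siNEG replicate 2). Acer2, the Golgi alkaline ceramidase, had signals of 78.9 and 82.3 in siNEG and of 93.1 and 96.4 in siGPR17 OPCs. The groups did not overlap, and the log2 fold change was 0.23 (standard error 0.088, adjusted p = 0.308, limma with Benjamini-Hochberg adjustment). Asah1, the acid ceramidase of the lysosome, read 3599 and 3392 in siNEG and 4009.7 and 3832 in siGPR17 OPCs, also without overlap (log2 fold change 0.17, standard error 0.092). With normexp Acer2 was at 0.11. The neutral ceramidase gene Asah2 was well above background on only 1 array of each group, where it read 27.1 and 27.8 against 13.3 and 15.2 on the others. Its standard error of 0.476 exceeded its log2 fold change of 0.11, and the sign turned without siNEG replicate 1 (-0.40) and without siGPR17 replicate 2 (-0.32). No probe was matched to Acer3.

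Of the 3 lipid kinases, 1 was dim in siNEG OPCs. This was Sphk1, the sphingosine kinase that produces S1P at the plasma membrane, with signals of 9.87 and 10.8 in siNEG and of 25.4 and 26.1 in siGPR17 OPCs. Both siGPR17 arrays were well above background and neither siNEG array was, and the replicates of each group were close. On these arrays the siGPR17 signal of Sphk1 was at least 2.49-fold that of siNEG (adjusted p = 0.209, limma with Benjamini-Hochberg adjustment), and the probe was tested only because of its signal there. As for Sptssb, its own dim signal was used, so the value equals the fitted log2 fold change of 1.32 and is not a lower limit. This log2 fold change lay between 1.25 and 1.38 as arrays were left out. With normexp the log2 fold changes of Sphk1 and Sptssb were 0.40 and -0.17. Sphk2, the isoform found also in the nucleus, was at 0.09 with overlapping arrays (0.017 without siNEG replicate 1). Cerk, which phosphorylates ceramide to ceramide 1-phosphate, had signals of 16500.0 and 19453 in siNEG and of 13699.8 and 13002.5 in siGPR17 OPCs. It was lower without overlap, with a log2 fold change of -0.42 (limma standard error 0.121, adjusted p = 0.249, limma with Benjamini-Hochberg adjustment).

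Of the 3 members that remove or export S1P, Sgpl1 alone had a matched probe. Sgpl1 is the lyase that degrades S1P irreversibly, and its signals of 146 and 155 in siNEG overlapped with those of 139.6 and 174 in siGPR17 OPCs (log2 fold change 0.05, standard error 0.142). No probe was matched to the phosphatase Sgpp1 or to the exporter Spns2.

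All 4 tested S1P receptors were lower in siGPR17 OPCs, with no overlap between groups in any of them, a pattern that 25.3% of all genes shared. Their median log2 fold change was -0.28, or -0.15 under spike-in scaling and -0.12 with normexp. However, S1pr2 turned positive (0.064) under spike-in scaling and S1pr5 was near 0 (0.0035) with normexp. S1pr3, a receptor coupled to several G proteins, had signals of 64.0 and 70.3 in siNEG and of 46.1 and 41.7 in siGPR17 OPCs. Both siGPR17 arrays were below both siNEG arrays, and the log2 fold change was -0.61 (standard error 0.109, 95% confidence interval -0.91 to -0.32, adjusted p = 0.209, limma with Benjamini-Hochberg adjustment). The probes of S1pr3 disagreed, since the dimmer one read 29.6 and 28.6 in siNEG and 29.6 and 26.1 in siGPR17 OPCs. Those arrays overlapped, with a log2 fold change of -0.07 (limma standard error 0.106), and the mean of both probes gave -0.34. With normexp the brighter probe was at -0.28.

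S1pr1, the Gi-coupled receptor best known from lymphocyte traffic, read 149.6 and 131 in siNEG and 117 and 109 in siGPR17 OPCs. The groups did not overlap, and the log2 fold change was -0.31 (standard error 0.114, 95% confidence interval -0.62 to 0.001, adjusted p = 0.300, limma with Benjamini-Hochberg adjustment). It was -0.17 with normexp and -0.18 under spike-in scaling. S1pr5, the receptor typical of mature oligodendrocytes, read 38.4 and 47.1 in siNEG and 35.6 and 35.5 in siGPR17 OPCs. The spread lay almost wholly between the siNEG arrays, and the log2 fold change was -0.26 (standard error 0.132, adjusted p = 0.395, limma with Benjamini-Hochberg adjustment), or -0.11 without siNEG replicate 2. S1pr2, another receptor of the family, read 732 and 775 in siNEG and 709.9 and 729 in siGPR17 OPCs. Its log2 fold change of -0.07 was smaller than its standard error of 0.090, and the upper siGPR17 array was only just below the lower siNEG array.

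**Figure D2:**
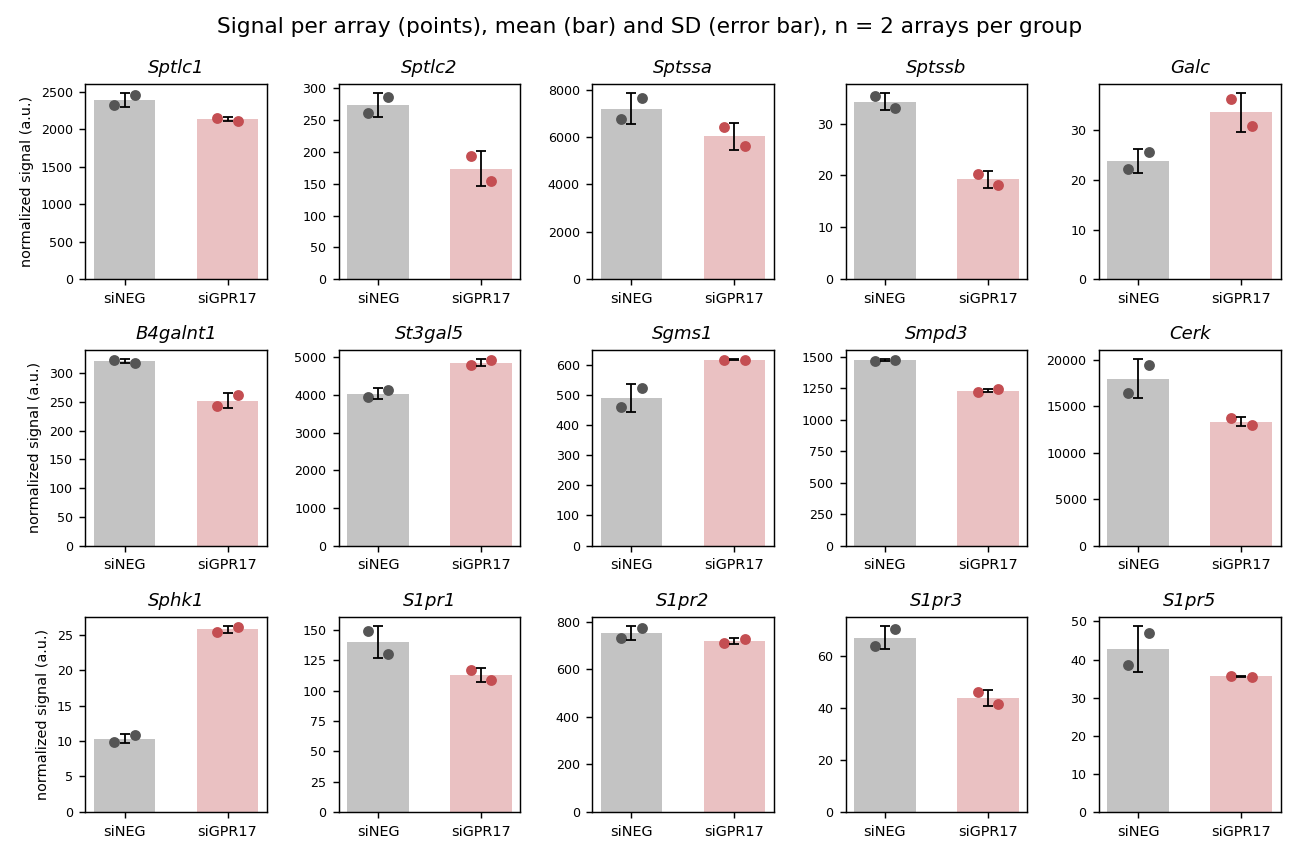
Normalized signal (arbitrary units, linear axis from 0) of 15 member genes on each array; points are single arrays, bars are means and error bars are SDs of n = 2 arrays, with siNEG in grey and siGPR17 in red. The S1P receptors and the serine palmitoyltransferase subunits shown lie lower in siGPR17 OPCs (for S1pr2 the sign turns under spike-in scaling, and for S1pr5 with normexp), whereas Sphk1 reads 9.87 and 10.8 in siNEG and 25.4 and 26.1 in siGPR17 OPCs.

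Markers of other cells that an OPC culture can hold were read beside these values. Of 6 astrocyte markers 4 were lower and 2 higher in siGPR17 OPCs. Their sums (brightest probe Slc1a3) were 7588 and 8202 in siNEG and 6076 and 5987 in siGPR17 OPCs. Log2 fold changes ran from -1.35 for Aqp4 to 0.33 for Gja1 (-0.016 without siNEG replicate 1). In limma with Benjamini-Hochberg adjustment, Aqp4 passed the thresholds with the trend and robust option (adjusted p = 0.0203) and with normexp (-0.84, adjusted p = 0.0173). All 7 tested microglial markers of 8 were lower (5 under spike-in scaling or with normexp, 6 without either siGPR17 replicate, and 3 without siNEG replicate 1, where the median turned from -0.19 to 0.12), with sums (brightest probe Cx3cr1) of 3328 and 1817 against 1932 and 2432 that overlapped, and Csf1r was on no array well above background. All 5 tested neuronal markers of 6 were lower (3 under spike-in scaling, 4 with normexp or quantile normalization, and 4 without siNEG replicate 1 or siGPR17 replicate 2), with sums (brightest probe Tubb3) of 2848 and 3294 against 2708 and 2568, and Slc17a7 was not detected above background. Of 5 endothelial markers 2 were tested and both were higher under every scaling, with sums (brightest probe Cdh5) of 114 and 116 against 140.2 and 160.0, while on no array were Pecam1, Cldn5 or Tie1 well above background. Of 6 fibroblast and mural markers 3 were tested, and all were higher under every scaling. Their sums (brightest probe Col1a2) did not overlap, at 456 and 345 against 466 and 464. Dcn, Lum and Pdgfrb were not well above background. The part of other cell types and of the precursor stage in the differences of the sphingolipid and S1P genes was not tested.

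A further 39 genes of the same pathway were read for comparison. Of these, 37 had a probe and 32 were tested. No probe was matched to Ormdl3 or Gla, and 5 genes had no tested probe. Of these, A4galt, Sgpp2 and Mfsd2b were on no array well above background, and Cers3 and S1pr4 on a single one. For Cers3 this was siNEG replicate 2, at 83.2 against 12.4 on the other siNEG array and 16.2 and 11.2 on the siGPR17 arrays, and for S1pr4 siGPR17 replicate 2, at 17.2 against 8.71 on the other siGPR17 array and 13.8 and 7.76 on the siNEG arrays. Higher values were found for 18 (27 under spike-in scaling, and 16 to 22 with an array left out) and lower values for 14, the median log2 fold change was 0.05, and arrays were without overlap for 11 upwards (34.4%, beside 28.1% of all genes) and 7 downwards (21.9%, beside 25.3%). In limma 0 of the 32 passed the thresholds, with 2 at an unadjusted p under 0.05 (6.25%, beside 16.2% of all genes). The count was 4 with spike-in scaling, normexp and the methods' t-test, beside 15.2%, 19.6% and 14.4% of all genes. It was also 4 under the trend and robust option, beside 2427 of 11656 genes. With the filter on all 4 arrays it was 4 of 29, beside 17.8%. Leaving out siNEG replicate 1 gave 7 such genes, beside 22.9% of all genes, leaving out siNEG replicate 2 gave 5, beside 16.8%, and leaving out the siGPR17 arrays in turn gave 2 and 1, beside 6.58% and 6.07%. Of the 32, 0 passed after normexp (0.961% of all genes did), while 1 passed under the trend and robust option, Neu4 (1.58% of all genes did). Neu4, a sialidase acting on gangliosides and glycoproteins, had signals of 1123 and 1261 in siNEG and of 819 and 738 in siGPR17 OPCs. The groups did not overlap (log2 fold change -0.61, standard error 0.115, adjusted p = 0.210, limma with Benjamini-Hochberg adjustment). Neu3, the sialidase of the plasma membrane that acts on gangliosides, read 41.8 and 40.1 in siNEG and 53.5 and 56.1 in siGPR17 OPCs. It lay on the opposite side, without overlap, at a log2 fold change of 0.42 (limma standard error 0.090, adjusted p = 0.215, limma with Benjamini-Hochberg adjustment; 0.22 with normexp). St8sia3, a sialyltransferase singled out after its values were seen, also reached a fold of 1.5 downwards (-0.62, standard error 0.358; -0.12 without siNEG replicate 1), but was well above background on 1 array of each group.

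Promoter sequence was available for 31 of the members as the 250 bases before a transcript's start in RefSeq, assembly GRCr8. Common promoter elements were searched on both strands: the E-box CACGTG, the GC box GGGCGG, the CCAAT box CCAAT and the TATA box TATAAA, none of which contains another. In the window lying most upstream for each gene, CACGTG was found in 1 member (Galc), GGGCGG in 21, CCAAT in 11 and TATAAA in 0, while a later Sphk1 window did hold TATAAA. Over all 33469 windows of the same length the shares were 5.59%, 30.5%, 34% and 12.9%. These shares count every window of a gene that has several, while each member was counted on its most upstream window only. The units therefore differ, and no comparison between them was tested. The windows of the members with a fold of 1.5 or more are printed 5′ to 3′ on the strand of the gene, with matches to these motifs on either strand in capitals. That of Sptlc2 is chr6:112762471-112762720 (minus strand), that of Sptssb chr2:156460910-156461159 (minus strand), that of Sphk1, the most upstream of 3, chr10:102257163-102257412 (plus strand), and that of S1pr3 chr17:13946014-13946263 (minus strand).
Sptlc2: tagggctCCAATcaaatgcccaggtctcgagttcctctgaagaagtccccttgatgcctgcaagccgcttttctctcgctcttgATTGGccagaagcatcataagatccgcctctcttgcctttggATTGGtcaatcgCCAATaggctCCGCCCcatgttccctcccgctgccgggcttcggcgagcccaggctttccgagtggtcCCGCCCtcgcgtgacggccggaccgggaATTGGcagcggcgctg
Sptssb: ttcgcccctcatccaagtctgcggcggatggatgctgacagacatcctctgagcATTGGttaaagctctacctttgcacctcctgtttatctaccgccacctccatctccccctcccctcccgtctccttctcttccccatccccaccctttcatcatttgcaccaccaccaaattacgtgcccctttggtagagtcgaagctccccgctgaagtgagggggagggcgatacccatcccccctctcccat
Sphk1: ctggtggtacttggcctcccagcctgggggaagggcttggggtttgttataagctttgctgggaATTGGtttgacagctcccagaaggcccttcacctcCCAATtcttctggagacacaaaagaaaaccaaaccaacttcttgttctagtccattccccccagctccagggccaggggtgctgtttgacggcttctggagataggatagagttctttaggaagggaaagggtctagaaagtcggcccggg
S1pr3: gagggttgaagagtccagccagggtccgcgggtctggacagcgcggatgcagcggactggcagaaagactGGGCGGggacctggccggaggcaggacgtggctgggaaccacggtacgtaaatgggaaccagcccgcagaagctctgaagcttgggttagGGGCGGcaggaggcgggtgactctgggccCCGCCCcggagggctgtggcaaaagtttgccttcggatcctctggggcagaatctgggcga
Sptlc2, Sptssb and the most upstream Sphk1 window hold CCAAT, Sptlc2 and S1pr3 hold GGGCGG, and a match describes letters only, not a bound site.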

How the data were processed

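RNA of 2 siNEG and 2 siGPR17 OPC samples, grouped by the sample titles, had been hybridised to single-colour Agilent rat arrays. The authors deposited spot intensity values from Feature Extraction 10.7.3.1 (submitters' processing notes), background-corrected but not scaled between arrays. Here log2 intensities were reduced by each array's 75th percentile over non-control probes, without control or outlier-flagged spots, and spots of a probe were averaged. Probes bright enough (well above background on 2 or more arrays, 28016 of 45565) were tested with lmFit and eBayes (limma 3.58.1, R 4.3.3) without a block, with Benjamini-Hochberg adjustment over all of them. Signals are printed on the linear scale, times a common factor. Unversioned RefSeq accessions (GRCr8 gene table) gave symbols for 21093 probes, and the brightest tested probe stood for a gene. The code was tested on simulated data. The members and lists were chosen with earlier results of these data known. By the naming rule every member is named, with signals per array for Gpr17, the S1P receptors and members with a fold of 1.5 or with an unadjusted p under 0.05 and no overlap. Other signals were added after the values were seen. Thresholds are those of the study's methods, whose general unpaired t-test for comparing 2 groups was run as an alternative. Alternatives were quantile, median and spike-in scaling, normexp on spot medians, no filter or one on all 4 arrays, the trend and robust option, the methods' t-test, the replicate block, the mean of a gene's probes and each array left out. Protein sequences were not used here.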

Additional observations from a re-analysis of the deposited data

Results flagged for a closer look

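A second probe of Asah2, the neutral ceramidase gene, did not enter the tests, because it was well above background on 1 of the 4 arrays only. It read 146.9 on siGPR17 replicate 1, against 3.69 on siGPR17 replicate 2 and 3.84 and 4.12 on the siNEG arrays. The tested probe of Asah2 read 15.2 on siGPR17 replicate 1, the lower of its siGPR17 values. No test was made on this single signal, and its source was not tested.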

How the results depend on the processing

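Against 1 probe past the thresholds in limma, 0 passed with spike-in scaling, without a filter on dim probes, with the filter on all 4 arrays, in the methods' t-test (which made no call in simulated data either) and with the replicate block, 242 passed after normexp, 420 under the trend and robust option, and 0 with any array left out. Gpr17 passed after normexp (-0.66, adjusted p = 0.022) and under the trend and robust option (-0.78, adjusted p = 0.0152), its adjusted p in limma ranging up to 0.665, and stayed from -0.80 to -0.77 as arrays were left out. Of the members, 1 passed under the trend and robust option, Sptlc2, and 0 with any array left out. Their median log2 fold change was 0.15 with spike-in scaling, where that of all genes was 0.141, and -0.039 without a filter on dim probes, and ranged from -0.065 to 0.030 as arrays were left out, when 15 to 20 members were higher. With spike-in scaling the sign turned for Arsa (0.084), Fa2h (0.091), S1pr2 (0.064) and Smpd2 (0.092), each below the shift of all genes, and with normexp for S1pr5 (0.0035). With an array left out, the sign turned for Arsa (-0.12 to 0.027), Asah2 (-0.40 to 0.63), Cers4 (-0.35 to 0.014), Cers5 (-0.13 to 0.25), Fa2h (-0.12 to 0.046), Sgms2 (-0.049 to 0.092), Sgpl1 (-0.11 to 0.21), Smpd2 (-0.11 to 0.031) and Ugcg (-0.038 to 0.068). The cause of these turns was not tested. The labels do not say whether replicate numbers pair the samples. The correlation of their deviations across probes was -0.065, which cannot decide this with 2 arrays per group. Replicate number also went with the row of the slide. In limma the block left 6 members at an unadjusted p under 0.05 in place of 10. Leaving out an array leaves a lone sample in its group, which is then assumed to vary like the other group. Sphk1, Sptssb and Asah2 have no value under the filter on all 4 arrays, because they were dim on some.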
